A study of Mus musculus with 5 samples.

Results

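The lysosomal cathepsins are the proteases that break down protein inside lysosomes, and 10 of their genes (Ctsa, Ctsb, Ctsc, Ctsd, Ctsf, Ctsh, Ctsk, Ctsl, Ctss and Ctsz) were followed here across 5 Affymetrix arrays of mouse mammary epithelial cells. They were taken by name, as the probe sets annotated to 1 of these genes alone, with the highest mean kept where a gene has several. Each of the 10 had exactly 1 such probe set, so all 10 were measured, out of 22180 genes in all. The 2 knockout arrays came from conditional knockout mice, MMTV-Cre+/Mmp14(f/f), whose Cre recombinase is driven by the MMTV promoter, a viral promoter active in mammary epithelium. The 3 wild-type arrays came from littermates with the same floxed Mmp14 alleles and no Cre. All mice were 4 weeks old and congenic FVB/NJ, and the cells were taken from lymph-node-free inguinal glands by collagenase digestion and differential centrifugation. Values are log2 signals. The arrays are called knockout 1 and 2 and wild type 1, 2 and 3, after the replicate numbers in the labels, which call them biological replicates but do not say how many mice went into each array. The p-values therefore reflect only how much these 5 samples vary.

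Cathepsins are made as inactive precursors, tagged with mannose 6-phosphate, carried to endosomes and activated by cleavage in the acid lumen. Most of the 10 are cysteine proteases, whereas Ctsd encodes an aspartic protease and Ctsa a serine carboxypeptidase that also protects other lysosomal enzymes. Some cathepsins are also secreted and cut matrix proteins outside the cell, which is the setting in which they are usually discussed beside membrane-type metalloproteinases such as MMP14. In the mammary gland they are known from the regression of the gland after weaning and from tumours, and macrophages carry several of them at high levels.

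Epithelial markers were bright on every array: Krt8, a luminal keratin, lay between 11.34 and 11.48, and Epcam, an epithelial adhesion molecule, between 9.98 and 10.10. Mmp14 itself read 7.98 and 7.28 on the knockout arrays against 8.15, 8.67 and 7.75 on the wild-type arrays, and it did not pass the test (-0.56 ± 0.39, SE; limma adjusted p = 0.919), so its signal does not settle the genotype labels. Among markers of other cells Col1a2, a collagen chain of fibroblasts, was bright, with a mean signal above 99.7% of the genes. Adgre1 and Csf1r, which mark macrophages, lay above 53.3% and 57.2% of the genes and C1qa, a complement gene of macrophages, above 44.0%. These lie near the middle, where a signal cannot be told from background without detection calls. Other macrophage markers were brighter: of the 14 measured 11 lay above the median gene, and Lyz2 read 6.85 to 7.88. By the array numbers in the labels, knockout 1 and wild type 1 and 2 form a first consecutive series (run 1) and knockout 2 and wild type 3 a second (run 2). The labels give no meaning for these series.

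None of the 10 cathepsins passed limma's test between the genotypes, as none of the 22180 genes did (0% called; 288 genes, no cathepsin among them, had an unadjusted p under 0.05). The mean was higher in the knockout for 3 members, lower for 6 and equal for 1. The means of Ctsk, a collagen-cleaving protease, were 0.89 log2 units apart, and the differences of the other members lay between -0.35 and 0.12. The median difference of the 10 was -0.04, beside 0.00 over all genes. Ctsk was also the only member whose genotypes did not overlap. Over all genes the knockout arrays lay above the wild-type arrays for 2.63% and below them for 2.8%. Among the members the counts were 1 of 10 on the higher side and 0 on the lower, too few to compare with those shares.

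**Figure D1:**
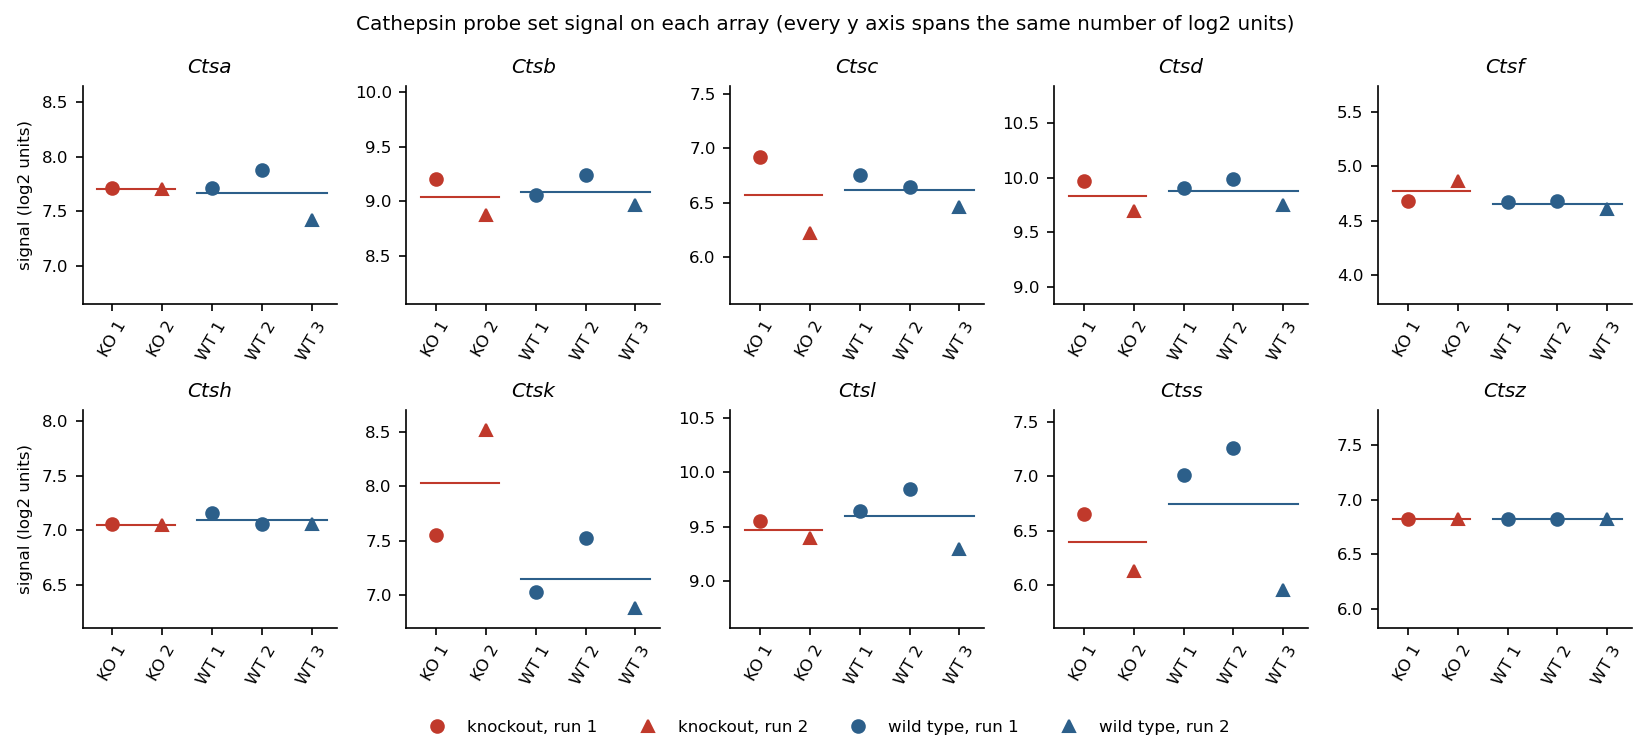
Signal of the probe set of each cathepsin gene on the 5 arrays, in log2 units, with knockout arrays in red, wild-type arrays in blue, run 1 as circles, run 2 as triangles and the group means as lines. Ctsk has both knockout arrays on top (7.55 and 8.51), Ctss runs from 5.96 to 7.26, and Ctsz reads 6.82 on all arrays.

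Ctsk encodes cathepsin K, which cleaves fibrillar collagen and is best known from osteoclasts. Its signal was 7.55 on knockout 1 and 8.51 on knockout 2, against 7.03, 7.52 and 6.88 on wild type 1, 2 and 3. Knockout 2 stood far above the rest, whereas knockout 1 exceeded wild type 2 by 0.03. The group means were 8.03 ± 0.68 (SD, n = 2) and 7.15 ± 0.33 (SD, n = 3). The difference of 0.89 ± 0.39 (SE; limma adjusted p = 0.919), a 1.85-fold ratio with a 95% interval from 0.855 to 4.01, did not pass the test. It was 0.28 within run 1 and 1.63 within run 2, and without knockout 2 it was 0.41. Without knockout 1 it was 1.37 (limma adjusted p = 0.223). The direction was the same in both runs, but 1 array carried most of the size.

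The mean of the fibroblast markers placed the arrays in the same order as Ctsk did, apart from wild type 2. This was not particular to fibroblasts, since the mean of the 11 basal myoepithelial markers gave the same order as the fibroblast mean. The basal myoepithelial mean was 7.557 and 7.657 on knockout 1 and 2 and 7.363, 7.701 and 7.315 on wild type 1, 2 and 3. The mean log2 signal of the 13 fibroblast markers was 7.94 and 8.03 on knockout 1 and 2 and 7.83, 8.31 and 7.63 on the wild-type arrays, so wild type 2 was highest there and knockout 2 was highest for Ctsk. Single markers differed: 6 of the 13 were highest on knockout 2, as Ctsk was, and 6 on wild type 2. Col1a2 was among the former, at 10.51 and 10.87 in the knockout against 10.62, 10.83 and 10.57, as was Col1a1, another collagen chain, at 8.13 and 8.68 against 7.87, 8.47 and 8.05. Pdgfra, a receptor of fibroblasts, was not, at 7.47 and 6.33 against 6.86, 7.43 and 6.10. Their summed linear signal ranged from 5639 to 6866 in the knockout and from 5171 to 6948 in the wild type, with 0 of 13 markers called. Of the 9 osteoclast markers 3 lay above the median gene. Acp5, the tartrate-resistant acid phosphatase, had a mean signal above 66.6% of the genes, Oscar above 27.2% and Dcstamp, a fusion receptor of osteoclasts, above 21.6%, and the summed signal of the 9 osteoclast markers was 210 to 224 against 204 to 239. Markers of endothelial cells were lower on knockout 1 than on any other array (mean 6.26) and highest on knockout 2 (6.99), against 6.65, 6.89 and 6.54 in the wild type, and their summed signal was 1136 to 1848 in the knockout and 1384 to 1890 in the wild type. The part of these cells in the Ctsk signal was not tested, and in a bulk preparation fewer cells of a type and less RNA per cell cannot be told apart.

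The genes whose profile over the 5 arrays was nearest to that of Ctsk were Ecrg4, Bex2 and Fmod. Nearness was the root mean square difference between profiles, each centred on its own mean, among 193 genes with 5 different values and a range of at least 75% of that of Ctsk. It was 0.16 log2 units for Ecrg4, 0.16 for Bex2 and 0.21 for Fmod, beside a range of 1.63 for Ctsk itself. Ecrg4 read 7.77 on knockout 2 and 6.45 to 6.89 on the other arrays. This is a description over 5 arrays that share their preparation, with no test.

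Ctss encodes cathepsin S, which trims the invariant chain of MHC class II molecules in antigen-presenting cells and works at neutral pH as well. Its signal was 6.65 and 6.13 on knockout 1 and 2, against 7.01, 7.26 and 5.96 on wild type 1, 2 and 3. Wild type 3 was the lowest array and wild type 2 the highest, so the wild type enclosed both knockout arrays. The means were 6.39 ± 0.36 (SD, n = 2) and 6.74 ± 0.69 (SD, n = 3), and the difference of -0.35 ± 0.49 (SE; limma adjusted p = 0.919) did not pass. Its sign turned with the run, at -0.48 within run 1 and 0.18 within run 2. Its range over the 5 arrays exceeded that of 99.2% of the genes, and that of Ctsk exceeded 99.7%.

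The genes nearest to Ctss by the same measure, among 411 candidates, were Plek (0.11), Rac2 (0.12) and Ccl22 (0.13). Plek, like Ctss, was lowest on wild type 3 (5.10) and highest on wild type 2 (6.28). The 14 macrophage and monocyte markers had a mean log2 signal of 5.53 and 5.27 on knockout 1 and 2 and of 5.57, 5.69 and 5.29 on the wild-type arrays, with a summed linear signal of 945 to 1318 in the knockout and 926 to 1397 in the wild type. Ctss and the mean of these markers were thus both lower on the 2 arrays of run 2. The part of macrophages in the Ctss signal was not tested.

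**Figure D2:**
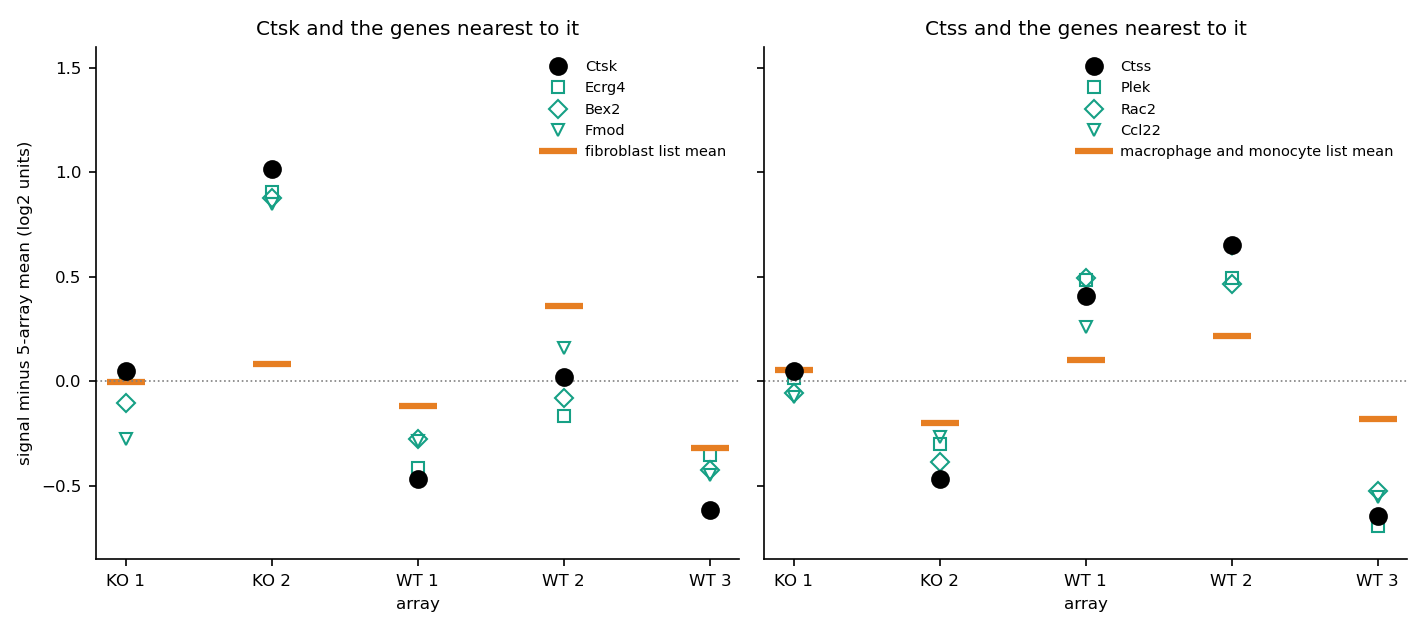
Signal of Ctsk (left) and Ctss (right) on each array minus its 5-array mean, in log2 units, with the 3 genes nearest in profile as open symbols and the mean of a marker list as an orange bar. Ctsk and its nearest genes peak on knockout 2 while the fibroblast mean peaks on wild type 2 (8.31), and Ctss and its nearest genes are lowest on wild type 3 and knockout 2, the arrays of run 2.

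Ctsk and Ctss are neighbours on chromosome 3, with 0 protein-coding genes between them in the RefSeq table of GRCm38.p6, and their signals were the most unlike of the 45 pairs of members (root mean square difference of centred profiles 0.82, median over pairs 0.21). That measure grows with the range of each gene, and these neighbours have the widest ranges among the members (1.63 and 1.30). The rank therefore need not mean opposed profiles. The 250 bases before their annotated start sites are shown because the profiles of these neighbours differed. They are from RefSeq, build GRCm38.p6, on the plus strand, chr3:95498960-95499209 for Ctsk and chr3:95526536-95526785 for Ctss.
Ctsk: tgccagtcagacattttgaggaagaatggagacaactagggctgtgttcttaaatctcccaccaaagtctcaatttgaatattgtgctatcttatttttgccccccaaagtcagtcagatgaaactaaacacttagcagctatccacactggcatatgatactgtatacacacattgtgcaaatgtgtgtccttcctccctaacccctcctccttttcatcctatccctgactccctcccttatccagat
Ctss: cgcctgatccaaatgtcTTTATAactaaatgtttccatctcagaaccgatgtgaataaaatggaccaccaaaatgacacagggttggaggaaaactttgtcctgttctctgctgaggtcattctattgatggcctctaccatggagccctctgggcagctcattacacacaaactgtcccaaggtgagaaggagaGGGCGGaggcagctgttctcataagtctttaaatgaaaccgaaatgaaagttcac
Capitals mark matches on either strand. The motifs searched were the E-box, with the letters CACGTG, the GC box, with GGGCGG, and the TATA motif, with TATAAA, and none of them overlap. The Ctss stretch held a GC box, which 32.7% of all 32851 such windows hold, and a TATA motif, which 12.4% hold, and the Ctsk stretch held none of the 3. The GC content was 43.2% for Ctsk and 44.8% for Ctss. A match is a description of the letters and not a binding site.

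Ctsb, Ctsl and Ctsd are the cathepsins usually most abundant in lysosomes, and their mean signals lay above 97.2%, 98.4% and 98.9% of the genes. Ctsb, a cysteine protease that acts as both endo- and exopeptidase, read 9.20 and 8.88 in the knockout and 9.06, 9.24 and 8.96 in the wild type. Knockout 2 was the lowest array and knockout 1 sat between wild type 1 and 2. The difference was -0.05 ± 0.14 (SE; limma adjusted p = 0.984), with a 95% interval from -0.45 to 0.36.

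Ctsd, the aspartic protease, read 9.97 and 9.70 in the knockout and 9.91, 9.99 and 9.75 in the wild type, in the same order of arrays as Ctsb. The difference was -0.05 ± 0.12 (SE; limma adjusted p = 0.968), with an interval from -0.39 to 0.29. The centred profiles of Ctsb and Ctsd differed by 0.04 log2 units, the smallest of the 45 pairs. Next came Ctsh and Ctsz at 0.0426, although Ctsz did not vary, since the measure is small for genes of narrow range. Ctsl, the endopeptidase that also trims proenzymes, read 9.55 and 9.39 against 9.64, 9.85 and 9.29, so both knockout arrays lay inside the wild-type range. Its difference was -0.12 ± 0.20 (SE; limma adjusted p = 0.928), with an interval from -0.68 to 0.43. As a knockout over wild-type ratio the interval of Ctsl runs from 0.625 to 1.35.

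Ctsc, Ctsh and Ctsz are exopeptidases. Ctsc, the dipeptidyl peptidase that activates serine proteases of neutrophils and cytotoxic lymphocytes, read 6.92 and 6.22 in the knockout and 6.75, 6.64 and 6.46 in the wild type. The 2 knockout arrays were the highest and the lowest of the 5, and the difference was -0.05 ± 0.25 (SE; limma adjusted p = 1.00) with an interval from -0.77 to 0.68. It was 0.22 within run 1 and -0.24 within run 2. Ctsh, an aminopeptidase, read 7.06 and 7.05 against 7.16, 7.06 and 7.06, a difference of -0.04 ± 0.04 (SE; limma adjusted p = 0.919), with the same value on 3 arrays to 6 decimals. Ctsz, a carboxypeptidase, had 6.82 on all 5 arrays to 6 decimals, so its difference was 0.00 and no spread could be seen.

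Such ties come with the deposited values and are common, and a tie is an equal summary value, not proof of equal RNA. Of the 10 members 6 had 5 different values, as did 31.2% of all genes.

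Ctsa and Ctsf had the other 2 small positive differences. Ctsa, the carboxypeptidase that protects beta-galactosidase and neuraminidase, read 7.71 and 7.70 in the knockout and 7.71, 7.87 and 7.42 in the wild type. Its difference was 0.04 ± 0.15 (SE; limma adjusted p = 1.00), and it was -0.08 within run 1 and 0.28 within run 2. Ctsf, a cysteine protease, had a mean signal above 54.2% of the genes. It read 4.68 and 4.87 in the knockout, 4.67 and 4.68 on wild type 1 and 2, and lower still on wild type 3, with a wild-type mean of 4.65 ± 0.04 (SD, n = 3). Knockout 2 was the highest array, and knockout 1 shared its value with wild type 2. The difference of 0.12 ± 0.07 (SE; limma adjusted p = 0.919) had an interval from -0.08 to 0.32.

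**Figure D3:**
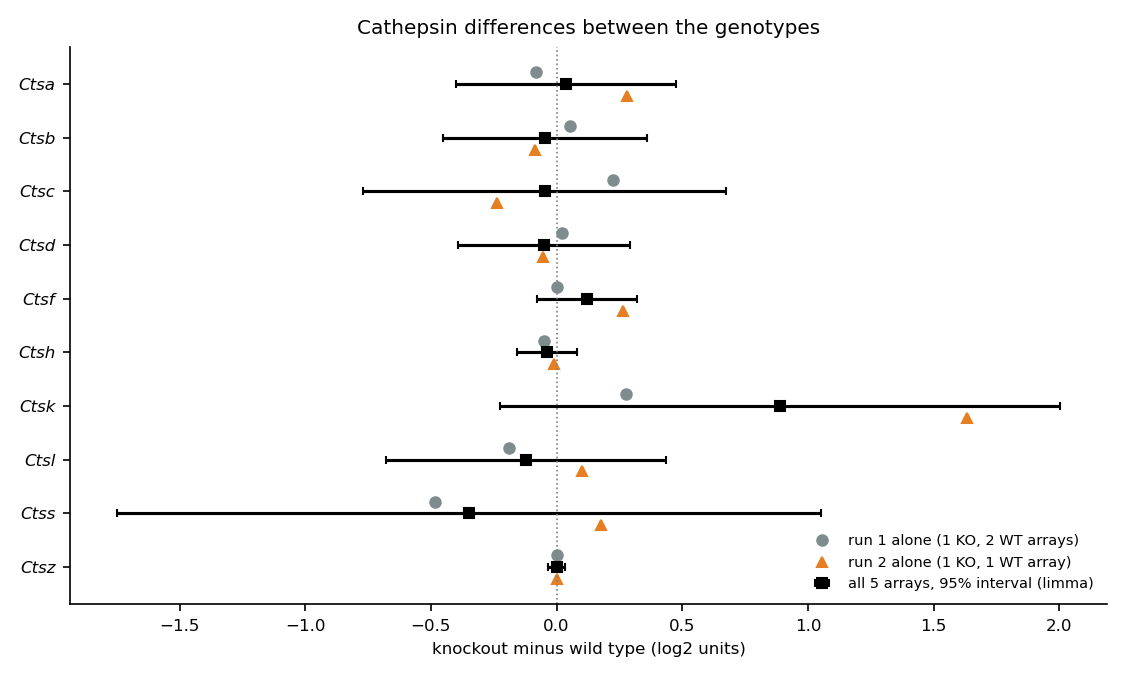
Knockout minus wild type for each cathepsin in log2 units, as the limma estimate with its 95% interval over all 5 arrays (black squares), within run 1 (grey circles) and within run 2 (orange triangles, 1 array per genotype). Every interval includes 0, and the 2 runs differ in sign for Ctsa, Ctsb, Ctsc, Ctsd, Ctsl and Ctss.

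The arrays of most cathepsins separated by run. Both arrays of run 2 lay below all 3 arrays of run 1 for 6 of the 10 members (Ctsa, Ctsb, Ctsc, Ctsd, Ctsl and Ctss), and 0 lay above. Over all genes this held for 9.82% on the lower side and 8.57% on the higher side, and for 23.6% on the lower side among the 6930 genes with 5 different values, where 5 of the 6 members with such values did so. The run means were 6.97 and 6.05 for Ctss, 6.77 and 6.34 for Ctsc, 9.68 and 9.34 for Ctsl, 9.17 and 8.92 for Ctsb, 9.96 and 9.73 for Ctsd and 7.76 and 7.56 for Ctsa, in run 1 and run 2. For Ctsa the runs barely separated. Knockout 2 read 7.7002 there, against 7.7101 on knockout 1 and wild type 1, and wild type 3 read 7.4217. With genotype in the same fit, run 2 minus run 1 was -0.89 ± 0.22 (SE; limma adjusted p = 0.530) for Ctss and -0.23 ± 0.04 (SE; limma adjusted p = 0.463) for Ctsd. No cathepsin and no other gene passed limma's test for the run (0% called; 1868 genes at an unadjusted p under 0.05). With each array left out in turn, a cathepsin passed only without wild type 3. It was Ctsf, which is not one of the 6, among 2162 genes, with knockout 2 then the lone array of run 2.

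**Figure D4:**
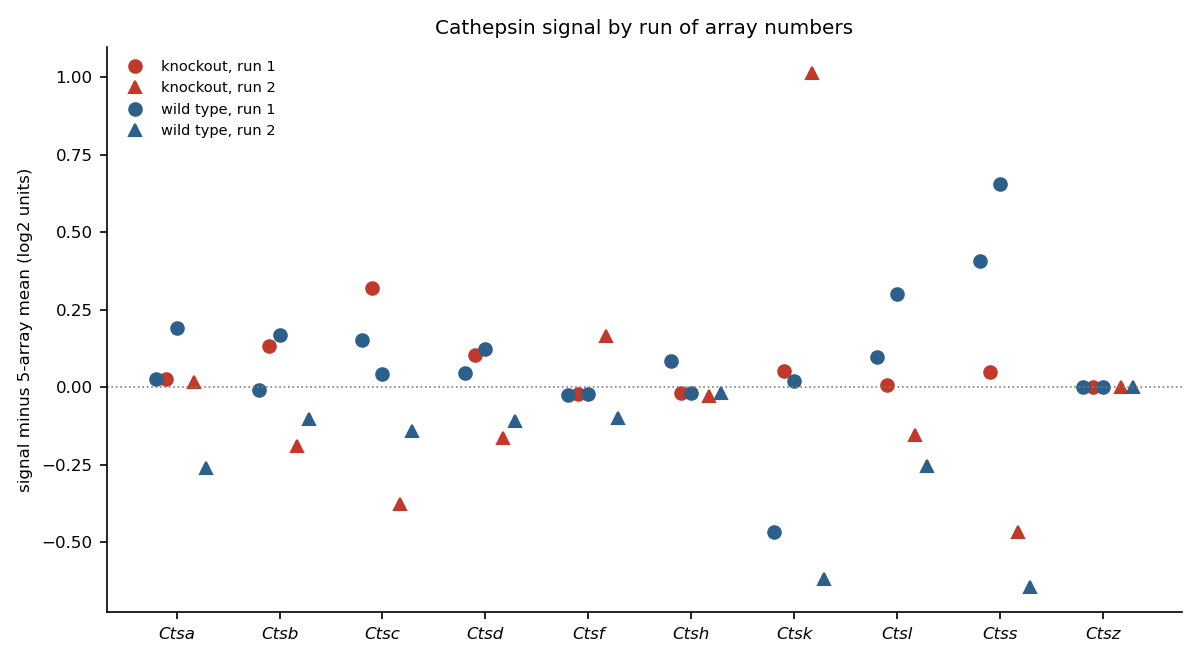
Signal of each cathepsin on each array minus its 5-array mean, in log2 units, with run 1 as circles, run 2 as triangles, knockout in red and wild type in blue. For Ctsa, Ctsb, Ctsc, Ctsd, Ctsl and Ctss both triangles lie below all circles, while Ctsk has its highest array in run 2.

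Part of the macrophage markers lay lower on run 2 as well. Of the 14 measured, 8 (57.1%) lay lower on both arrays of run 2 than on all of run 1. That held for 9.82% of all genes and for 23.6% of the genes with 5 different values. Among the 8 were Adgre1, whose signal lies near the middle of all genes, Cd14 and Lyz2. Cd14 and Lyz2 were chosen after their values were seen. Of the 14 markers 0 lay higher, and the rest, among them Csf1r and C1qa, overlapped between the runs. The summed signal of the list was 1318 to 1397 on the run 1 arrays against 926 and 945 on those of run 2. Pan-epithelial markers lay lower on run 2 in this way for 5 of 13 (38.5%), fibroblast markers for 2 of 13 and endothelial markers for 0 of 10. Osteoclast markers did so for 3 of 9 (33.3%), and the remaining marker lists for 0% to 18.2%. The part of macrophages in the lower cathepsin signals of run 2 was not tested.

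Other lysosome genes were taken from lists by role, and 0 of the 183 genes of the 9 lists passed limma's test between the genotypes. Medians lay between -0.05 and 0.01. Among the 18 genes of mannose 6-phosphate sorting, which brings cathepsins to the lysosome, the mean was higher in the knockout for 7 and lower for 11. Gga1, an adaptor of the sorting receptors, read 5.73 and 5.68 against 5.46, 5.60 and 5.56 (0.17 ± 0.05, SE; limma adjusted p = 0.919), with no overlap. Igf2r, the large mannose 6-phosphate receptor, read 7.02 and 7.04 against 7.08 on each wild-type array, a tie that leaves the wild type without spread. Without overlap 1 of the 18 genes lay higher and 1 lower, beside 2.63% and 2.8% of all genes.

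The vacuolar proton pump acidifies the lysosome so that cathepsins become active. It had the lowest median of the 9 lists, -0.05 over 24 genes. Of these, 20 had a lower mean in the knockout, beside 10982 of all 22180 genes. The list mean was 6.49 and 6.40 on knockout 1 and 2, against 6.53, 6.52 and 6.49 on wild type 1, 2 and 3. Knockout 1 was thus level with wild type 3, and knockout 2 was the lowest array. Within the list Atp6v1h, a regulatory subunit, read 7.72 and 7.70 in the knockout against 7.95, 8.12 and 7.89 in the wild type. All wild-type arrays were above both knockout arrays, and the difference was -0.28 ± 0.08 (SE; limma adjusted p = 0.919). Atp6v1b2 also did not overlap, at -0.04 ± 0.04. These were 2 of 24 genes, beside 2.8% of all genes on the lower side.

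Genes of lysosome control and of autophagy showed medians of 0.00 over 21 and 22 genes. Rragc, a GTPase that recruits mTORC1 to lysosomes, was 7.53 ± 0.11 (SD, n = 2) against 7.65 ± 0.04 (SD, n = 3), and Rheb, the activator of mTORC1, 8.64 ± 0.13 against 8.78 ± 0.07, both without overlap and neither called. They were 2 of the 21 control genes, beside 2.8% of all genes on the lower side. Knockout 1 came close to the wild type, at 7.607 against 7.622 on wild type 3 for Rragc. For Rheb it read 8.733 against 8.740 on wild type 2 and 3. Gabarap and Wipi2, both of autophagosome formation, differed by 0.07 ± 0.04 and 0.12 ± 0.07 (SE). The 38 other lysosomal hydrolases had a median of -0.02. Among them Gusb, beta-glucuronidase, read 5.95 and 5.58 against 5.96, 6.06 and 5.99, and Naglu, an enzyme of heparan sulphate breakdown, 4.75 and 4.47 against 4.42, 4.46 and 4.46. The 27 lysosomal membrane proteins had a median of 0.00, with Hgsnat at 0.05 ± 0.03 (SE) and Mcoln1, a lysosomal calcium channel, at 0.10 ± 0.07.

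Factors that process cathepsins and the other cathepsin genes did not pass either. Of 6 measured processing genes 5 had a lower mean in the knockout, with Psap, prosaposin, at 0.03 ± 0.12 (SE) and Dpp7 at -0.01 ± 0.02. The 13 other cathepsin genes, among them the placental group, had a median of 0.01, with Ctse, an aspartic protease of secretory epithelia, at 5.95 ± 0.35 against 6.41 ± 0.37 and Ctso at 5.27 ± 0.25 against 5.11 ± 0.00. None of the 13 lay lower in run 2 without overlap, and 4 lay higher. Most of the 13 were dim: 3 lay above the median gene, beside all 10 members. Low signals cannot be told from background, so the run shifts of these 2 lists are not on equal footing.

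The inhibitors of cysteine cathepsins had a median of -0.02 over 21 genes. Cst3, cystatin C, a secreted inhibitor, read 10.76 and 10.85 against 10.76, 10.60 and 10.76 (0.10 ± 0.07, SE; limma adjusted p = 0.919), and Cst9 differed by 0.19 ± 0.15. The widest differences of this list, named after their values were seen, came from 1 array. Stfa3, a stefin inhibitor, read 9.87 on wild type 1 and 4.62 to 6.44 on the other 4 arrays, and Stfa1 read 8.23 there and 3.98 to 5.20 elsewhere. The stefin A genes are near-identical copies whose probes may share signal, which was not tested. Stfa2 and Stfa2l1 differed by only 0.0053 and 0.0543 between the genotypes.

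**Figure D5:**
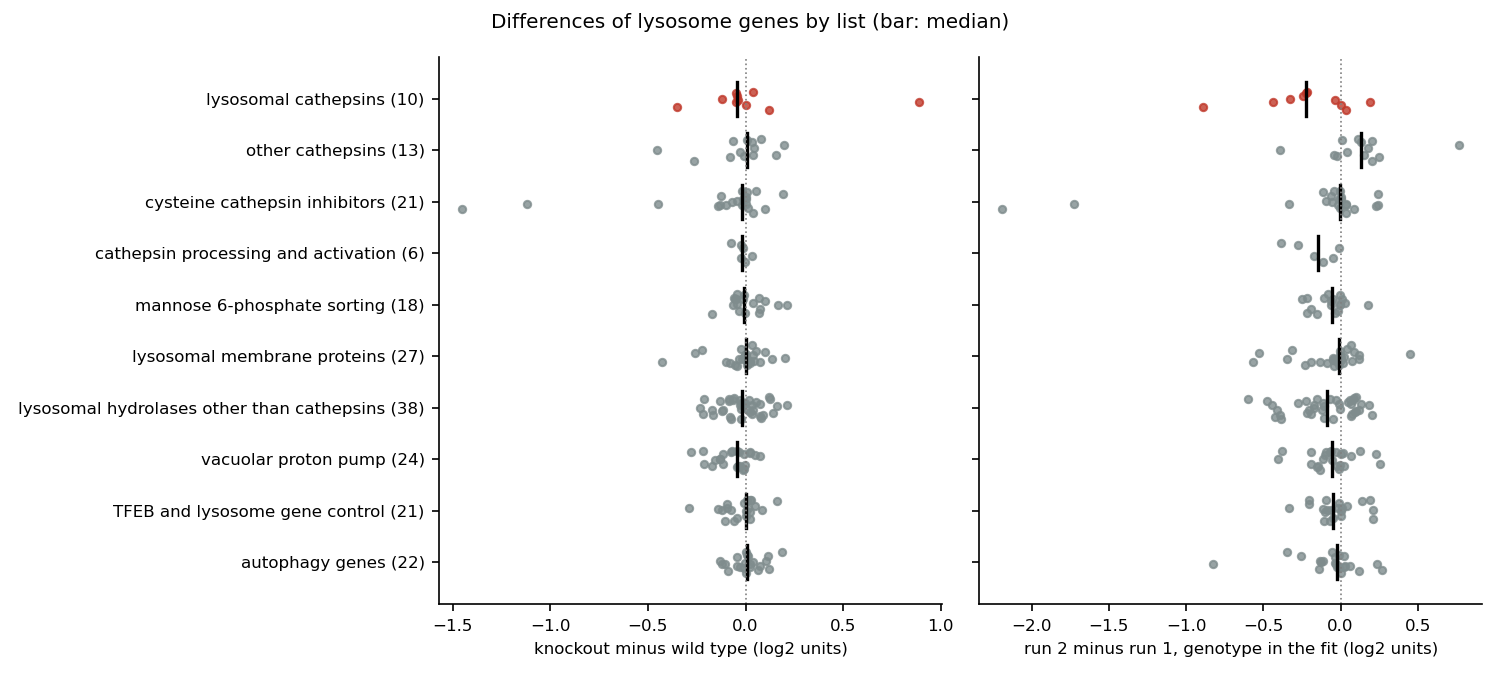
Differences of single genes (dots) in the cathepsin list (red) and 9 other lysosome lists (grey, number of measured genes in brackets), in log2 units, between the genotypes (left) and between the runs with genotype in the fit (right), with the median as a bar. The cathepsin median is -0.04 on the left and -0.22 on the right, and the leftmost dots in the inhibitor row are Stfa3 and Stfa1.

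The other lists were also set between the runs. Run 2 minus run 1 had a median of -0.22 for the 10 cathepsins, -0.14 for the 6 processing genes, -0.09 for the 38 other hydrolases, which include all 6 processing genes, -0.06 for the proton pump, -0.01 for the membrane proteins and 0.13 for the 13 other cathepsin genes, beside 0.00 over all genes. The median was -0.06 for mannose 6-phosphate sorting, -0.05 for lysosome control, -0.03 for autophagy and -0.01 for the inhibitors. The 13 other cathepsin genes were mostly dim, with a median percentile of 20.4 against 86.2 for the 10 members. The hydrolases lay lower in run 2 without overlap for 10 of 38 (26.3%) and higher for 2, beside 9.82% and 8.57% of all genes. Among all genes with 5 different values the lower share was 23.6%. It was 33.3% for the processing genes, 27.8% for sorting, 25.9% for the membrane proteins and 20.8% for the proton pump. The remaining lysosome lists had 0% to 18.2%. Among the 10 hydrolases lower in run 2, and chosen after their values were seen, were Grn, progranulin, Gm2a, the ganglioside activator, and Lgmn, the protease legumain that cleaves cathepsin precursors. Whether these shares differ was not tested.

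The E-box CACGTG is the core of the motif that TFEB and its relatives bind before many lysosome genes. RefSeq start-site windows were matched for 8 of the 10 members, with 9 windows in all. Of these 8 genes, 4 held a CACGTG within the 250 bases before a start site. Of all 32851 windows 6.02% held it, a share counted per window and not per gene. The sequence around each match in the members is shown because 3 of these 4 members, Ctsa, Ctsd and Ctsl, were among the 6 of 10 members that lay lower on run 2. The motif is in capitals, and the stretches are chr2:164833749-164833772 (plus strand) for Ctsa, chr7:142388055-142388077 and chr7:142387908-142387937 (minus strand) for Ctsd, chr19:4855074-4855103 (plus strand) for Ctsf and chr13:64370739-64370768 (minus strand) for Ctsl, in GRCm38.p6.
Ctsa: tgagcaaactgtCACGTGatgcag
Ctsd, distal: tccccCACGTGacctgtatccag
Ctsd, proximal: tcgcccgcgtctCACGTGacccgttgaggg
Ctsf: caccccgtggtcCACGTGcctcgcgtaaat
Ctsl: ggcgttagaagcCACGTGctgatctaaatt
The motif starts 12 bases before the start site in Ctsa, 245 and 98 before it in Ctsd, 79 in Ctsf and 236 in Ctsl. Ctsf holds the E-box and its runs overlapped, and Ctsc and Ctss lay lower on run 2 with no CACGTG in these windows. A match is no proof that a factor binds there.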

How the data were processed

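The members and gene lists were chosen with earlier results of these data known. The authors deposited log2 signals per probe set, for which the submitters' processing notes list RMA (background correction, quantile normalisation, median-polish summary) and limma with no version. The library files and genome build behind the summary are not stated in the labels. Of 41345 probe sets, 23521 have 1 gene symbol in the platform annotation, 1814 several and 16010 none listed. Probe sets with 1 symbol were kept, 1 per gene by highest mean, which gave 22180 genes. Of 329 listed symbols 311 were measured, some found through a synonym in the RefSeq table of GRCm38.p6. Array medians lay between 4.24 and 4.29. No detection calls were used, and precision is limited by having 5 arrays.

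Knockout minus wild type was tested two-sided with lmFit and eBayes of limma 3.58.1 (R 4.3.3), with no covariate and Benjamini-Hochberg adjustment over all genes, at a threshold of 0.05. SE is limma's moderated SE. The procedure was tested on simulated data. Genes named from the lists are those with the largest moderated t and no overlap between the groups, up to 3 per list, or up to 2 by moderated t where all overlap, and for marker lists the first 3 measured. Others, chosen after their values were seen, are the stefins, Cd14, Lyz2, Grn, Gm2a and Lgmn. The run term comes from the fit with run and genotype.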

Additional observations from a re-analysis of the deposited data

How the results depend on the processing

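None of the 10 cathepsins was called in any of the alternatives, which were quantile normalisation again, median centring, leaving out genes under the 40th percentile, averaged probe sets, a variance trend with intensity, the run as fixed and as random block, run 1 alone, the replicate block, 1 array left out and, chosen after seeing the data, the 6930 genes with 5 different values, 6 cathepsins among them. Over all genes the count of calls was 0 except when 1 array was left out, where it ranged from 0 to 1757 (1757 without knockout 1, 835 without knockout 2), where 1 knockout array remains and its spread is borrowed from the wild type. With 1 array left out the median of the members ranged from -0.11 (without knockout 1) to 0.03 (without knockout 2), and it was 0.050 in run 2 alone. In each alternative it moved by less than the 0.13 SD between replicates. Ctsk (0.41 to 1.37), Ctsf (0.028 to 0.21), Ctsh (-0.056 to -0.0045) and Ctss (-0.74 to -0.091) kept their sign with 1 array left out. That was not so for Ctsa (-0.087 to 0.14), Ctsb (-0.21 to 0.12), Ctsc (-0.40 to 0.30), Ctsd (-0.18 to 0.085) and Ctsl (-0.27 to 0.0051). Signs also turned in run 1 alone for Ctsa (-0.082), Ctsb (0.054), Ctsc (0.22) and Ctsd (0.020), in run 2 alone for Ctsl (0.099) and Ctss (0.18), with the run as a fixed block for Ctsc (0.026) and with the replicate block for Ctsa (-0.087). The cause was not tested.

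Replicate numbers are shared by knockout and wild type 1 and 2. Deviations of same-numbered arrays from their group means correlated at 0.245 and -0.044 across genes. The largest correlation, 0.261, was that of knockout 2 with wild type 3. The deviations of the 2 knockout arrays mirror each other by construction, so these values cannot settle a pairing. The numbers were not taken as pairs. With the replicate block 0 genes were called and Ctsk was at 0.76. Low signals cannot be told from background without detection calls, which bears on Ctsf.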
